A study of Mus musculus with 6 samples.

Results

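The heterogeneous nuclear ribonucleoprotein (hnRNP) genes and the serine- and arginine-rich (SR) splicing factor genes were compared between the thymus of 2 mouse crosses. The members were all probe sets annotated with exactly 1 gene symbol beginning with Hnrnp or Srsf, which gave 91 of 45037 probe sets and 29 of 18193 annotated genes, 19 of them hnRNP genes and 10 SR genes. The AKR cross, adult (AKR/J x FVB/NJ)F1 females, was set against the DBA cross, adult (DBA/2J x FVB/NJ)F1 females, with 3 arrays of thymus each, from animals killed under Avertin anaesthesia, an injected agent shared by both crosses, and snap frozen. All animals carry 1 FVB/NJ parental genome, and only the other parent differs. An F1 animal has both parental alleles of each autosomal gene. The crosses thus set an AKR/J genome against a DBA/2J genome, each beside an FVB/NJ genome. No value is specific to an allele, and whether a difference at a gene arises from its own alleles was not tested. The design text asks for basal expression differences between these genotypes, and the labels do not say whether the arrays of a cross came from separate animals. The p-values therefore rest on the differences among these arrays alone, which may be technical.

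Splicing removes introns from a newly made transcript, and the choice of exons is steered by RNA-binding proteins. SR proteins carry a domain of alternating arginine and serine, bind enhancer sequences in exons and recruit the splicing machinery, whereas hnRNPs coat the nascent transcript and often act as repressors of exon inclusion. In T cells this balance is known for the Ptprc transcript, which encodes the phosphatase CD45 and whose variable exons are skipped under the action of hnRNP L and hnRNP LL. Many hnRNP and SR genes also make alternatively spliced transcripts of their own that are degraded, by which the proteins limit their own level.

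Each array gave 1 log2 value per probe set, and array medians lay between 5.92 and 5.948. Correlations over all probe sets ran from 0.984 to 0.989 between crosses and from 0.994 to 0.996 within a cross. The tissue carried its label, since 15 thymocyte genes of 17 listed were measured, and their mean level lay between 11.62 and 11.73 on the AKR arrays and between 11.62 and 11.64 on the DBA arrays. Only Cd3e of these 15 was called. In whole tissue, fewer cells of a type and less RNA per cell cannot be told apart. Differences are log2 values of the AKR cross minus those of the DBA cross, given ± the standard error (SE), and a negative value is lower in the AKR cross. A probe set was tested if at least 3 of its 6 values exceeded the 40th percentile of their arrays, and it was called if limma gave a Benjamini-Hochberg adjusted p under 0.05 over all 27385 tested probe sets.

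Of the 91 member probe sets, 86 from 28 genes were tested. The hnRNP probe sets lay mostly lower in the AKR cross, and the SR probe sets lay on both sides of 0. Of 55 hnRNP probe sets, 45 had a negative difference, 19 were called lower in the AKR cross and 3 were called higher, with a median of -0.14. Of 31 SR probe sets, 14 had a negative difference, 4 were called lower and 3 higher in the AKR cross, with a median of 0.0033. Over all 27385 tested probe sets, 13151 had a negative difference and the median was 0.013. Of them, 15.0% were called lower in the AKR cross, 12.2% were called higher and 27.2% were called in all. The balance of these calls depended on the scaling. As deposited, 3338 were higher and 4111 lower in the AKR cross. After cyclic loess normalization the balance stayed on the same side, with 3379 higher and 4367 lower. It turned to 4277 higher and 3701 lower after median centring, and to 4298 higher and 3752 lower after quantile normalization. The hnRNP probe sets called lower numbered 15 after cyclic loess normalization, 13 after centring and 15 after quantile normalization. Probe sets of 1 gene share their RNA and are not replicates, so the count of genes is the more cautious one. With each gene read on its brightest tested probe set, 6 of 28 genes (21.4%) were called, against 25.0% of all 12855 genes, which is close to that background. Hnrnpl alone was higher in the AKR cross by this count, where 13.1% of all genes were. Hnrnpa2b1, Hnrnph3, Hnrnpk, Hnrnpr and Srsf5 were lower, 5 of 28 genes against 11.9% of all genes. A negative difference was found by this count for 14 of 19 hnRNP genes and 5 of 9 SR genes, against 5740 of all 12855 genes. The medians were -0.10 for hnRNP genes, -0.010 for SR genes and 0.033 for all genes. The arrays of the crosses did not overlap for 11 of the 28 genes, against 43.9% of all genes. The AKR arrays all lay above in 1 of the 28 genes, against 24.5% of all genes. They all lay below in 10 of the 28, against 19.4% of all genes. Without AKR replicate 1 the count of member probe sets called lower in the AKR cross was 15, against 23 with all arrays, with the 19 hnRNP and 4 SR probe sets together.

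**Figure D1:**
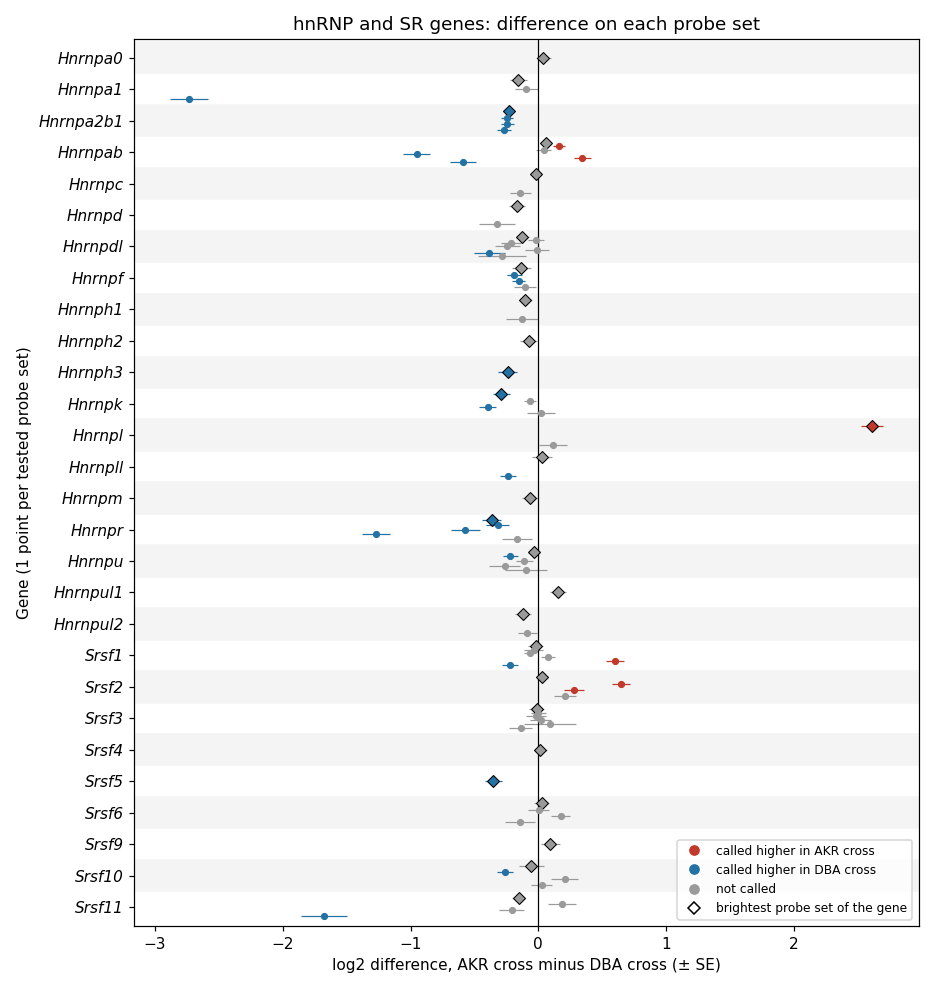
Log2 difference, AKR cross minus DBA cross, with its SE for each of the 86 tested probe sets, with 1 row per gene and hnRNP genes above SR genes. Diamonds mark the brightest probe set of a gene and colours give the call, and 4 points lie beyond 1 in size, those of Hnrnpl, Hnrnpa1, Srsf11 and Hnrnpr.

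Differences of the members were small beside these few exceptions. Of the 29 called probe sets, 20 differed by less than 0.5 on the log2 scale, and 4 of the 86 differed by more than 1, which 2.74% of all tested probe sets and, on the brightest probe set, 0.972% of all genes did. The 4 were single probe sets of Hnrnpl, Hnrnpa1, Srsf11 and Hnrnpr. In each of these genes at least 1 other probe set was not called. On the brightest probe set, Hnrnpl alone of the 28 tested genes differed by more than 1, against 0.972% of all genes. The SD of the 3 arrays of a cross had a median of 0.081 over the member probe sets and was at most 0.40.

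Hnrnpl encodes an hnRNP that binds CA-rich RNA and regulates exon choice in Ptprc and many other transcripts. Its brightest probe set, 1424101_at, read 10.41, 10.46 and 10.39 on the AKR arrays, against 7.96, 7.76 and 7.69 on the DBA arrays. Each AKR array thus stood more than 2 log2 units above each DBA array. The difference was 2.61 ± 0.08 (SE), a 6.12-fold higher value in the AKR cross, with an adjusted p = 3.82e-07. The other Hnrnpl probe set, 1445594_at, read 5.56, 5.67 and 5.55 on the AKR arrays, against 5.31, 5.53 and 5.58 on the DBA arrays. Here the groups overlapped, and the difference of 0.12 ± 0.11 was not called (adjusted p = 0.447). The within-array log2 ratio of 1445594_at over 1424101_at differed by -2.50 ± 0.15 between the crosses, which is given as a description since this pair was chosen for its disagreement. The values of 1445594_at lay on average at the 45.1 percentile of the AKR arrays and the 43.5 percentile of the DBA arrays, with no measured background beside them, so whether it could have followed the change was not tested. With the 2 probe sets averaged, the Hnrnpl difference was 1.37.

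Hnrnpl lies on chromosome 7 at 28808546 to 28822268 of GRCm38.p6, a position from the RefSeq gene table and not from the array's own annotation. The differences measured at the neighbours of Hnrnpl were at most 0.25 in size. Rinl, which encodes a Rab5 guanine nucleotide exchange factor, lies before it and holds a tRNA gene within its span that had no probe set, and its 3 probe sets differed by -0.06, 0.05 and 0.04, with no call. On the other side, Ech1, which encodes a peroxisomal and mitochondrial enoyl-CoA isomerase, differed by 0.15 ± 0.11 and Lgals4, a galectin gene, by -0.0025 ± 0.09, and neither was called. Sirt2, a deacetylase gene and the next coding gene beyond Rinl, named after its value was seen, was called higher in the AKR cross at 0.25 ± 0.08 (adjusted p = 0.0386). The related gene Hnrnpll, on chromosome 17, encodes hnRNP LL, the hnRNP induced in activated T cells. Its brightest probe set read 10.81, 10.97 and 10.80 on the AKR arrays and 10.90, 10.91 and 10.68 on the DBA arrays, with overlap and no call (0.03 ± 0.08). Its second probe set, 1427144_at, read 9.71, 9.78 and 9.70 on the AKR arrays, against 9.99, 9.98 and 9.93 on the DBA arrays. That probe set was called lower in the AKR cross (-0.24 ± 0.06, adjusted p = 0.0194), and the within-array ratio of the 2 Hnrnpll probe sets differed by -0.27 ± 0.08 (adjusted p = 0.0455, limma over all such pairs, a ratio test added after the values were seen).

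Hnrnpa2b1, which encodes the A2 and B1 proteins that bind pre-mRNA and sort RNAs in the cytoplasm, was lower in the AKR cross on every probe set. The brightest probe set read 12.43, 12.53 and 12.49 on the AKR arrays, against 12.66, 12.74 and 12.74 on the DBA arrays. All 4 Hnrnpa2b1 probe sets were called lower in the AKR cross, with differences from -0.27 to -0.23, and on none of them did the crosses overlap. The brightest differed by -0.23 ± 0.04, a 1.17-fold change (adjusted p = 0.00574), and each of the other 3 was called in all alternative settings that held it, while the call of the brightest was lost in 1 of 19. Groups without overlap were found for 35 of the 86 member probe sets and for 44.7% of all tested ones. Hnrnpa2b1 was the one gene with several tested probe sets on which every one was called.

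Hnrnpr encodes an RNA-binding protein close to Syncrip, and 4 of its 5 probe sets were called lower in the AKR cross. The brightest, 1427129_a_at, read 10.83, 11.00 and 11.09 on the AKR arrays, against 11.26, 11.32 and 11.42 on the DBA arrays, a difference of -0.36 ± 0.08 (adjusted p = 0.00758). The 1438807_at probe set read 7.55, 7.45 and 7.42 on the AKR arrays, against 8.96, 8.71 and 8.55 on the DBA arrays. This was the largest Hnrnpr difference, at -1.27 ± 0.11 (2.41-fold, adjusted p = 8.14e-05). The within-array log2 ratio of 1438807_at over the brightest probe set differed by -0.90 ± 0.16 between the crosses. It is given as a description, since 1438807_at was singled out for its size. The probe sets 1437526_x_at and 1452030_a_at differed by -0.32 and -0.57, and 1429232_at, with the lowest values, was not called (-0.17) and overlapped. The direction of Hnrnpr was thus the same on all 5 probe sets, while the size ran from 0.17 to 1.27 below 0.

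Hnrnpk encodes a KH-domain protein that binds C-rich RNA and DNA. Its brightest probe set, 1460547_a_at, read 12.17, 12.00 and 12.16 on the AKR arrays, against 12.30, 12.39 and 12.50 on the DBA arrays. The difference was -0.29 ± 0.07 (adjusted p = 0.0113). A second Hnrnpk probe set, 1423684_at, was also lower in the AKR cross (-0.40 ± 0.06, adjusted p = 0.00216), and 2 others, at -0.06 and 0.02, were not called.

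Hnrnph3 and Srsf5 had 1 probe set each, so no second reading stands beside them. Hnrnph3, of the hnRNP H and F group that binds G-rich RNA, read 9.37, 9.37 and 9.48 on the AKR arrays, against 9.52, 9.70 and 9.72 on the DBA arrays. Its difference of -0.24 ± 0.08 passed narrowly (adjusted p = 0.0453), and the call was lost in 11 of 19 alternative settings, where the adjusted p reached 0.137. Srsf5, which encodes the SR protein SRp40, read 12.63, 12.49 and 12.72 on the AKR arrays, against 12.92, 12.90 and 13.08 on the DBA arrays. The crosses did not overlap on Srsf5, and its difference of -0.35 ± 0.07 (1.28-fold, adjusted p = 0.00534) was the only one among SR genes to pass on the brightest probe set.

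**Figure D2:**
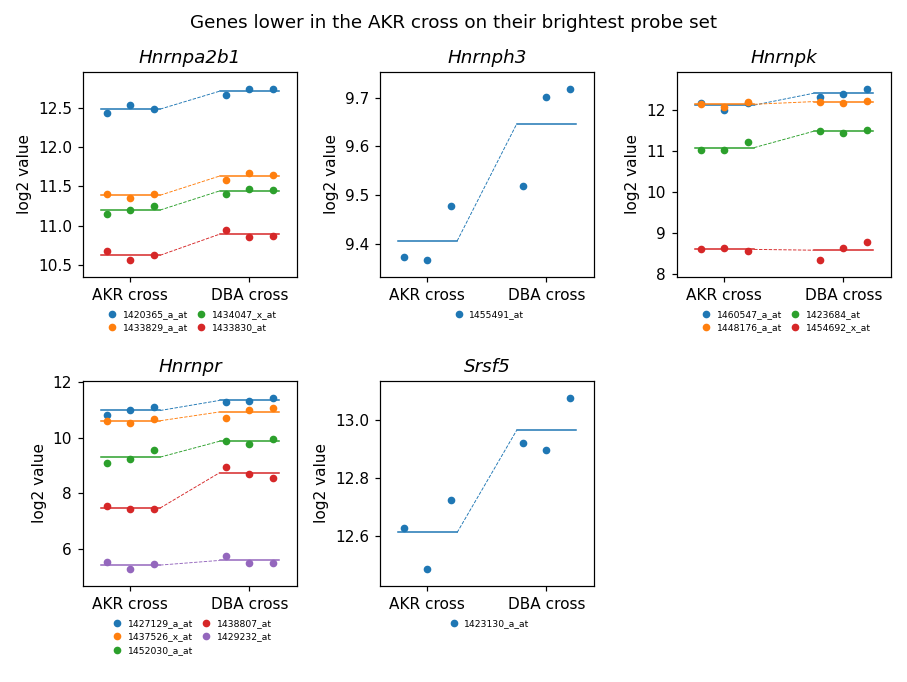
Log2 values on each of the 3 arrays of either cross for the 5 genes called lower in the AKR cross on their brightest probe set, with 1 colour per probe set, solid lines at the means and dashed lines joining the means of a probe set. All 4 Hnrnpa2b1 probe sets shift by a similar step, and the scales of the panels differ.

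The stretch from 250 bases before to 50 after the start of the 4 called genes with a single RefSeq start window is printed here to set the gene that was higher beside genes that were lower. Nothing was measured on these stretches, which come from the RefSeq table of GRCm38.p6 and follow the gene's own strand. Each window surrounds 1 RefSeq transcript start, which need not be the outermost start of the gene. Capitals mark matches on either strand to the CCAAT box (CCAAT), the GC box (GGGCGG), the TATA box (TATAAA) and an ETS factor site (CCGGAAG), where touching matches form 1 run.
Hnrnpl, chr7:28810640-28810939, plus strand: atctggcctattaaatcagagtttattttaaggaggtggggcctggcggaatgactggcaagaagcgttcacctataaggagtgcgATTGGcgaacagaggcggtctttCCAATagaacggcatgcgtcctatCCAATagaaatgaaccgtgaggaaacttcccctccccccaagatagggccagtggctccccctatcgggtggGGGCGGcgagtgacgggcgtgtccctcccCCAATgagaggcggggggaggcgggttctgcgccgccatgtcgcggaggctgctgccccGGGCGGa
Hnrnph3, chr10:63023800-63024099, minus strand: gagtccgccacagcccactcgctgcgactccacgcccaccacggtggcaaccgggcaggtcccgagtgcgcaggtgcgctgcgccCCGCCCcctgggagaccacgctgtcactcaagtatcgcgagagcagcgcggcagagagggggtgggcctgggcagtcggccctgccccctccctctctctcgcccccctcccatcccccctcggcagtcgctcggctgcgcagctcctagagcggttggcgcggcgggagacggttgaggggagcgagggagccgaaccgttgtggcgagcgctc
Hnrnpk, chr13:58402068-58402367, minus strand: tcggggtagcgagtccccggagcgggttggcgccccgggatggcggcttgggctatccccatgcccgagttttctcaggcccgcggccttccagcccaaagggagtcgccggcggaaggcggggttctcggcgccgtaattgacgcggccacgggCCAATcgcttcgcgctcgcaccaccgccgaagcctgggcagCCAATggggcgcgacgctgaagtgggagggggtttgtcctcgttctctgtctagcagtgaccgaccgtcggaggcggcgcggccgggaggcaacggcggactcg
Srsf5, chr12:80945249-80945548, plus strand: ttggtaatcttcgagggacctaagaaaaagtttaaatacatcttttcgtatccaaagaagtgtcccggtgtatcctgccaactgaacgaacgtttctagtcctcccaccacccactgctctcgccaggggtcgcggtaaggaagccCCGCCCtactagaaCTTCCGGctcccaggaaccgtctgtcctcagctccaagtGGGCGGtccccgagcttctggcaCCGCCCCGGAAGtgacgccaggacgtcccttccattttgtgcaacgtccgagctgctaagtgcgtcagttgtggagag
The Hnrnpl window held 4 CCAAT boxes and 2 GC boxes, and the Hnrnpk window held 2 CCAAT boxes. The Srsf5 window held 3 GC boxes and 2 ETS sites, one of them overlapping a GC box, and the Hnrnph3 window held 1 GC box. None of the 4 held the TATA box letters. Of 29 member genes, 27 had a window in the table, with 39 windows in all. The GC box was found in 82.1% of the member windows and in 35.7% of all 32851 windows of this length, the CCAAT box in 51.3% and 37.4%, the ETS site in 23.1% and 8.86% and the TATA box in 10.3% and 13.6%. A member gene had up to 5 windows, so the member windows are not separate genes. By gene, the GC box was found in 22 of 27, the CCAAT box in 16, the ETS site in 5 and the TATA box in 4. The ETS share of member windows thus rests on 9 windows of 5 genes. The motifs were not counted by gene over all genes, so these gene counts have no background beside them. The median G and C content was 68.3% in the member windows and 52.7% in all windows, and its part in the motif shares was not tested. A match describes letters only.

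In 7 of the 20 member genes with several tested probe sets, the probe sets of the gene disagreed, meaning that 2 were called in opposite directions or that a called and an uncalled one lay more than 0.5 apart. Disagreement grows with the number of probe sets. Among all genes it was found in 9.33% of those with 2 tested probe sets, 22% of those with 3 and 47.6% of those with 4 or more, against 1 of 6, 1 of 1 and 5 of 13 member genes, and the last share was below that of all genes. The 7 genes were Hnrnpa1, Hnrnpab, Hnrnpl, Hnrnpr, Srsf1, Srsf2 and Srsf11. In the ratio test, added after the values were seen, 9 of 58 member pairs (15.5%) were called, against 25.8% of all 10216 pairs, and these 9 came from the 7 genes and Hnrnpll.

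**Figure D3:**
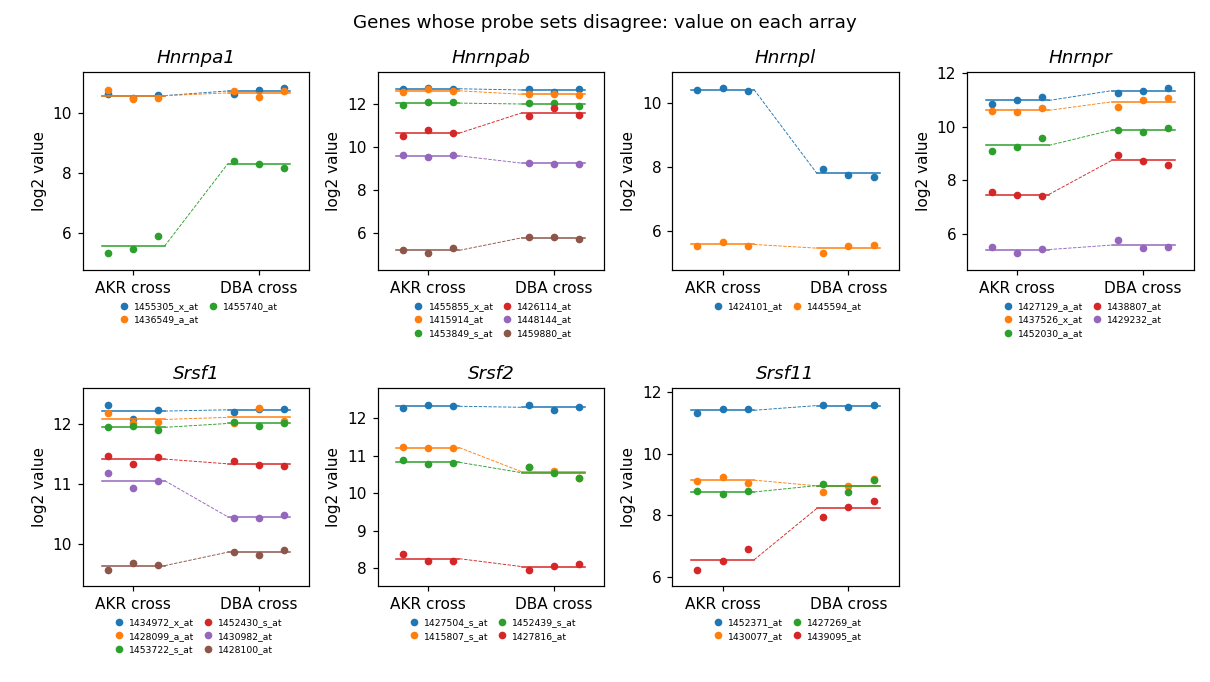
Log2 values on each of the 3 arrays of either cross for the 7 genes whose probe sets disagree, with 1 colour per probe set, solid lines at the means and dashed lines joining the means of a probe set. In Hnrnpa1, Hnrnpl and Srsf11 a single probe set moves steeply while the others run nearly level.

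Hnrnpa1 encodes hnRNP A1, an abundant repressor of splice sites that opposes SR proteins. Its brightest probe set, 1455305_x_at, read 10.63, 10.52 and 10.62 on the AKR arrays, against 10.63, 10.76 and 10.83 on the DBA arrays, and did not pass (-0.16 ± 0.07, adjusted p = 0.113). The 1455740_at probe set read 5.32, 5.46 and 5.91 on the AKR arrays, against 8.40, 8.31 and 8.18 on the DBA arrays. It was 6.66-fold lower in the AKR cross (-2.74 ± 0.15, adjusted p = 6.92e-06), the largest member difference in size, and the crosses did not overlap. The third probe set (-0.09) was not called, and with all 3 averaged Hnrnpa1 was called lower in the AKR cross at -0.99. A further 7 probe sets carried Hnrnpa1 or Hnrnpa3 together with other symbols and were not used, so Hnrnpa3 has no value here, and the reading of Hnrnpa1 is uncertain where near-identical copies can share probes.

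Hnrnpab, which encodes an hnRNP of the A and B type that also binds single-stranded DNA, was called in both directions. Its 1426114_at probe set read 10.50, 10.77 and 10.67 on the AKR arrays, against 11.47, 11.83 and 11.51 on the DBA arrays, a difference of -0.95 ± 0.10 (adjusted p = 0.000272). The 1448144_at probe set read 9.62, 9.53 and 9.63 on the AKR arrays, against 9.27, 9.23 and 9.23 on the DBA arrays, a difference of 0.34 ± 0.07 (adjusted p = 0.00495). On neither of these did the crosses overlap. Of the other tested Hnrnpab probe sets, 1415914_at was higher in the AKR cross (0.16, adjusted p = 0.0251), 1459880_at was lower (-0.59, adjusted p = 0.00334) with 2 of its 3 AKR values under the 40th percentile, and the 2 remaining, the brightest included, differed by 0.06 and 0.04 with no call. No single size or direction for Hnrnpab can be read from these probe sets.

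Among SR genes, Srsf11, which encodes an SR-related protein of early spliceosome assembly, showed the widest gap. Its 1439095_at probe set read 6.24, 6.53 and 6.89 on the AKR arrays, against 7.94, 8.27 and 8.48 on the DBA arrays. This was 3.19-fold lower in the AKR cross (-1.67 ± 0.18, adjusted p = 0.000269). The brightest Srsf11 probe set read 11.34, 11.45 and 11.45 on the AKR arrays, against 11.57, 11.53 and 11.60 on the DBA arrays, without overlap but not called (-0.15 ± 0.05, adjusted p = 0.0533). The remaining pair differed by 0.19 and -0.21 and was not called. With the 4 probe sets averaged, Srsf11 was called lower in the AKR cross (-0.46, limma adjusted p = 0.00543).

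Srsf1 encodes ASF/SF2, the SR protein on which much of the knowledge of exonic enhancers rests, and 4 of its 6 tested probe sets were not called, with differences from -0.06 to 0.08. The 1430982_at probe set read 11.19, 10.94 and 11.05 on the AKR arrays, against 10.44, 10.44 and 10.49 on the DBA arrays. It was 1.52-fold higher in the AKR cross (0.60 ± 0.07, adjusted p = 0.000379). The 1428100_at probe set went the other way, at 9.58, 9.69 and 9.66 on the AKR arrays against 9.87, 9.83 and 9.91 on the DBA arrays (-0.22 ± 0.06, adjusted p = 0.0302). The brightest probe set read 12.32, 12.09 and 12.24 on the AKR arrays and 12.20, 12.25 and 12.25 on the DBA arrays, with overlap. The second Srsf1 call is the less stable of the pair, since it was lost in 8 of 17 alternative settings, while the first held in all 17.

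Srsf2 encodes SC35, a protein of nuclear speckles, and its 4 probe sets all had positive differences. The brightest, 1427504_s_at, read 12.27, 12.36 and 12.31 on the AKR arrays, against 12.35, 12.23 and 12.29 on the DBA arrays, with no call (0.03 ± 0.05). The 1415807_s_at probe set read 11.23, 11.21 and 11.20 on the AKR arrays, against 10.69, 10.59 and 10.42 on the DBA arrays, and was 1.57-fold higher in the AKR cross (0.65 ± 0.07, adjusted p = 0.000293). Another, 1452439_s_at, was called at 0.28 ± 0.08 (adjusted p = 0.0268), and 1427816_at, at 0.21, was not. Only on the brightest did the crosses overlap, and with the 4 probe sets averaged Srsf2 was called higher in the AKR cross (0.29, adjusted p = 0.00539).

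The remaining hnRNP genes differed by small amounts or not beyond their spread. Hnrnpu, which encodes the scaffold attachment factor SAF-A, had 5 probe sets with differences from -0.26 to -0.03, of which 1423050_s_at was called (-0.22 ± 0.06, adjusted p = 0.0222). The Hnrnpu call was lost in 7 of 16 alternative settings. Hnrnpf, of the G-rich RNA-binding group, had 2 of 4 probe sets called lower in the AKR cross (-0.19 and -0.15), and its brightest was not called (-0.13). These Hnrnpf calls were lost in 9 and 11 of 17 alternative settings. Hnrnpdl, a relative of Hnrnpd, had 7 probe sets, all with negative differences from -0.38 to -0.0092, and 1456698_s_at was the only one called (adjusted p = 0.0434), although the crosses overlapped on it. Its call was lost in 10 of 16 alternative settings. Hnrnpd, which encodes the AU-rich element binding protein AUF1, lay lower on both tested probe sets (-0.16 and -0.32), with adjusted p of 0.0797 and 0.114, and neither was called. No probe set was called for Hnrnpc (-0.02 and -0.14), which encodes a core hnRNP that binds uridine-rich tracts, for Hnrnph1 (-0.10 and -0.13) and Hnrnph2 (-0.08), for Hnrnpm (-0.07), for Hnrnpa0 (0.04) or for Hnrnpul2 (-0.12 and -0.09). Hnrnpul1, a relative of Hnrnpu, had a positive difference that was not called (0.15 ± 0.07, adjusted p = 0.111), and it was called after arrays were centred on their median (adjusted p = 0.0474) or quantile normalized (adjusted p = 0.0356).

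The remaining SR genes gave 1 call among 16 tested probe sets. Srsf3, which encodes the smallest SR protein SRp20, had 6 probe sets with differences from -0.14 to 0.09, none of them called. Its brightest read 11.81, 11.62 and 11.73 on the AKR arrays and 11.77, 11.73 and 11.68 on the DBA arrays, a difference of -0.01 ± 0.06. Srsf6 had 4 probe sets from -0.14 to 0.18, Srsf4 differed by 0.02 and Srsf9 by 0.09, and none of these was called. Srsf10, an SR protein that acts as a repressor when dephosphorylated, had 1 of 4 probe sets called lower in the AKR cross (1418527_a_at, -0.26 ± 0.06, adjusted p = 0.0144), with the brightest at -0.05. Srsf12 had 1 probe set, at 3.18, 3.13 and 3.15 on the AKR arrays and 3.18, 3.29 and 3.05 on the DBA arrays, which was below the 40th percentile throughout and was not tested. The 4 other member probe sets below that filter belonged to Hnrnpab, Hnrnpc, Hnrnpd and Srsf1.

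Other genes of the splicing pathway were counted from lists by each gene's brightest probe set. Counts of these and later lists stand beside the 13.1% of all genes called higher and the 11.9% called lower in the AKR cross. RNA-binding proteins that are counted with the hnRNPs under other names went both ways, with 5 of 22 higher and 5 lower (22.7% each) in the AKR cross and a median of 0.0063. The 5 lower were 2 without AKR replicate 2 or DBA replicate 2 and 3 without AKR replicate 1 or DBA replicate 3, and the 5 higher were 3 without DBA replicate 3 and 2 with probe sets averaged. Khdrbs1, which encodes the signalling-regulated splicing factor Sam68, differed by -0.42 ± 0.05, and Tardbp, which encodes TDP-43, by -0.35 ± 0.05. Taf15, which encodes an RNA-binding factor associated with TFIID, differed by 1.12 ± 0.16, although its other probe set was called lower in the AKR cross, and Ptbp1, the polypyrimidine tract binding protein, differed by 0.26 ± 0.05. The median over all 12855 genes was 0.033.

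Kinases that phosphorylate SR proteins and SR-related proteins had 3 of 24 (12.5%) higher and 4 (16.7%) lower in the AKR cross, with a median of -0.06. Over all genes the shares were 13.1% and 11.9%. The 3 higher were 1 without AKR replicate 2, AKR replicate 3 or DBA replicate 2, and the 4 lower were 8 with probe sets averaged and 2 without sharing of variance. Srpk2, an SR protein kinase gene, read 8.76, 8.41 and 8.99 on the AKR arrays, against 9.74, 9.85 and 10.04 on the DBA arrays. Its difference was -1.15 ± 0.14 (2.23-fold, adjusted p = 0.000487), and of its 5 other probe sets 2 were called lower and 1 higher in the AKR cross. Luc7l2, a gene of U1 particle association, differed by -1.35 ± 0.19, with 4 of its 6 other probe sets called in the same direction. Pnn, which encodes the SR-related protein pinin, differed by -0.45 ± 0.06, with both other probe sets called in the same direction, and Scaf1 by 0.59 ± 0.08. The related kinase gene Srpk1 was higher in the AKR cross (0.25 ± 0.07, adjusted p = 0.0269) and is named here after its value was seen.

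Proteins of the spliceosome core had 6 of 33 (18.2%) higher and 3 (9.09%) lower in the AKR cross, with a median of 0.09. Sf3a2 (0.34 ± 0.05) and Sf3b4 (0.38 ± 0.06), of the U2 particle, and Snrpd3 (0.42 ± 0.07), a Sm protein gene, were higher in the AKR cross, and Sf1 (-0.19 ± 0.03), the branch point binding protein, was lower, while 3 of its 4 other probe sets were called higher. The 6 higher were 3 without AKR replicate 1 or DBA replicate 2 and 10 after centring or quantile normalization, and the 3 lower were 0 without a variance trend and 6 with the replicate block. Other regulators of alternative splicing had 1 of 18 (5.56%) higher and 5 (27.8%) lower in the AKR cross, with a median of -0.08. The 1 higher was lost without AKR replicate 2, AKR replicate 3 or DBA replicate 2, and the 5 lower were 3 with the filter at the 60th percentile. Among them Celf1 differed by -0.37 ± 0.05, with no call on its 4 other probe sets, Esrp1, an epithelial splicing regulator, by -0.67 ± 0.11, Rbfox1 by -0.58 ± 0.10 and Rbm47 by -0.65 ± 0.11, while the other Rbm47 probe set was called in the opposite direction. Of 12 epithelial markers measured, 2 (16.7%) were higher and 3 (25%) lower in the AKR cross. Their mean level per array ran from 9.81 to 9.91 in the AKR cross and from 9.81 to 9.87 in the DBA cross. The part of epithelial content in the Esrp1 value was not tested.

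Of 8 measured genes known for regulated splicing in T cells, 1 (12.5%) was higher and 3 (37.5%) were lower in the AKR cross. The 3 lower were 1 after centring, and also 1 when either AKR replicate 1 or 2, or either DBA replicate 2 or 3, was left out. The 1 higher was lost when either AKR replicate 1 or 3, or either DBA replicate 1 or 2, was left out. Ptprc read 13.03, 12.95 and 13.10 on the AKR arrays, against 13.15, 13.16 and 13.32 on the DBA arrays. Its total signal was slightly lower in the AKR cross (-0.19 ± 0.06, adjusted p = 0.0372), with the other probe set called in the same direction, and these values do not resolve which variable exons were included. Malt1, a paracaspase gene, differed by -0.64 ± 0.14 with both other probe sets called in the same direction, Fyn by -0.26 ± 0.08 and Lef1 by 0.23 ± 0.07.

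Proliferation genes and B cell markers also differed between the crosses. Proliferation genes were called higher in the AKR cross for 11 of 23 genes (47.8%), against 13.1% of all genes. The 11 were 7 without AKR replicate 2 and 6 without a variance trend or without sharing of variance. Their mean level ran from 10.46 to 10.66 on the AKR arrays and from 10.34 to 10.38 on the DBA arrays. Rrm2, a ribonucleotide reductase gene, differed by 0.29 ± 0.05, Ccna2, a cyclin gene, by 0.41 ± 0.07, Plk1, a mitotic kinase gene, by 0.55 ± 0.10 and Pcna, the replication clamp gene, by 0.23 ± 0.04. B cell markers were called higher in the AKR cross for 5 of 10 genes (50%), and their mean level ran from 7.79 to 7.86 on the AKR arrays and from 7.40 to 7.46 on the DBA arrays. Glycam1, a lymph node vessel marker, read 7.83, 7.69 and 7.84 on the AKR arrays, against 8.40, 4.74 and 4.76 on the DBA arrays, and Pth, the parathyroid hormone gene, read 6.40, 6.67 and 5.34 on the AKR arrays, against 7.08, 8.59 and 5.23 on the DBA arrays. DBA replicates 2 and 3 thus stood below the other 4 arrays on Glycam1, Pth varied within both crosses, and neither gene was called. The part of cell content in the members' values was not tested.

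**Figure D4:**
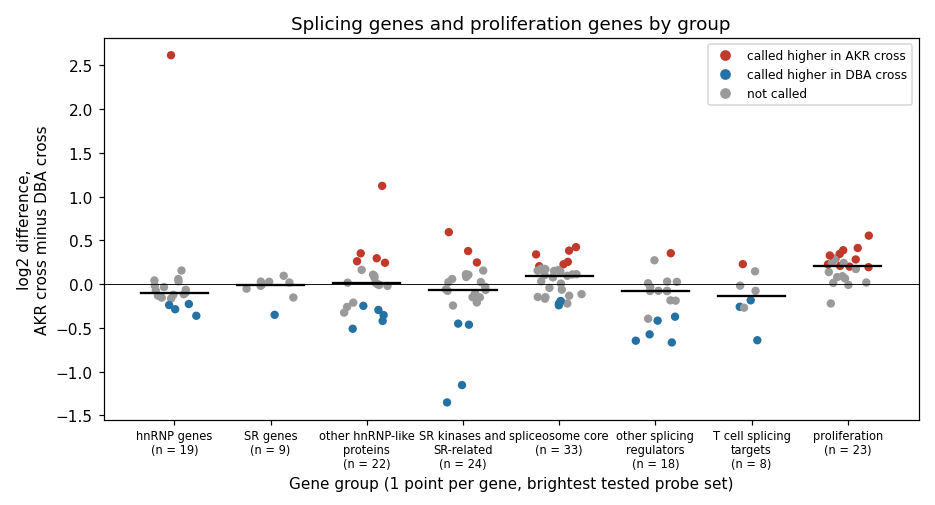
Log2 difference, AKR cross minus DBA cross, of each gene on its brightest tested probe set for hnRNP genes, SR genes, 4 lists of other splicing genes, T cell genes with regulated splicing and proliferation genes, with black bars at the medians and colours for the call. Hnrnpl stands at 2.61, far from the other 18 hnRNP genes.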

How the data were processed

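The deposited table held log2 values per probe set made by the authors, from 2.47 to 14.4 on 6 arrays. Per the submitters' processing notes the tools were MAS5 and RMA, and no source used here says which made the values or in what version. No normalization was added. Besides 64 control probe sets, which were left out, 27385 of 45037 passed the filter on dim values. Symbols came from the platform annotation and 0 changed through Entrez identifiers in the RefSeq gene table. A gene was represented by its brightest tested probe set with 1 symbol, which gave 12855 genes. Differences were fitted on all 6 arrays by limma 3.58.1 (R 4.3.3; lmFit, then eBayes with a trend), and two-sided p-values were adjusted by Benjamini-Hochberg over all tested probe sets. Depth does not apply to arrays, and their number limits the precision. Plots used matplotlib 3.10.9 and Python 3.11.15.

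The members, the lists and the rule for named genes were chosen with earlier results of these data known. By that rule every member gene is named, values on all arrays are given for Hnrnpl, for genes with disagreeing probe sets, for members called on their brightest probe set and for those over 2-fold, and up to 4 called genes with the smallest adjusted p are named from each list of splicing, target or proliferation genes. Values on all arrays for other probe sets, and Sirt2 and Srpk1, fall outside it. Of 12 dendritic and myeloid markers 10 were measured, with 2 higher and 2 lower in the AKR cross, of 13 stromal, vessel and fat markers 12, with 0 and 1, and of 6 markers of adjacent glands and lymph nodes 3, with 0 and 0 by limma (1 at an unadjusted p under 0.05), although 2 DBA arrays stood apart on Glycam1. Alternatives were 2 other filters, 3 scalings, 3 variance models, weighted arrays, a block for the replicate number, probe sets without names ending in x_at or s_at, 2 gene-level fits and each array left out in turn.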

Additional observations from a re-analysis of the deposited data

How the results depend on the processing

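The Hnrnpl call held in all 19 alternatives, with a difference from 1.37 to 2.69, the lowest where its probe sets were averaged. Of the 29 called member probe sets, 13 were called in every alternative that held them and 16 were lost in at least 1. Among the lost calls, 1415914_at of Hnrnpab, 1437526_x_at of Hnrnpr and 1452439_s_at of Srsf2 were each lost in 7 alternatives, and 1427144_at of Hnrnpll in 5. A further 51 values of 21 probe sets changed sign under an alternative, and none of these was called in either fit. Without sharing of variance between probe sets, 17 member probe sets were called, 13 of them lower in the AKR cross, against 29 and 23 in the fit described, with 2 genes called (1 lower) against 6 (5 lower), and 27 genes of the other lists against 47. Without a trend in the variance, 19 member probe sets were called, 15 of them lower, with 3 genes lower. The genes higher in the AKR cross were 2 rather than 1 after median centring, after quantile normalization, without probe sets whose names end in x_at or s_at, and with probe sets averaged per gene, and the cause was not tested. With 1 array left out, member probe sets lower in the AKR cross numbered 15 to 22, all member calls 20 to 26, and genes called 5 or 6.

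The replicate numbers do not pair the samples by the labels, and same-numbered arrays deviated together with correlations of 0.389, 0.0697 and 0.371, so not every pair exceeded 0.1. Across numbers, AKR replicate 3 and DBA replicate 1 correlated at -0.375, and AKR replicate 1 and DBA replicate 3 at -0.327. Deviations were taken from the mean of each cross, so they sum to 0 over its 3 arrays. A positive value for 1 pair thus forces negative ones elsewhere, and the negative values are not a separate observation. The other pairs of unlike number ran from -0.141 to 0.0748. Whether the numbers mark a shared step was not tested. DBA replicate 2 correlated best with AKR replicate 3 (0.0748). With the replicate number as a block, 37 member probe sets were called, 30 of them lower in the AKR cross, and 9 genes, 8 of them lower. No detection calls were used here, so dim probe sets such as 1445594_at and 1455740_at have no measured background beside them.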
